A study of Homo sapiens with 18 samples.

Results

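The genes described are 33 that encode the enzymes making, elongating, desaturating and activating long-chain fatty acids, with a few direct partners. They were chosen by name, and all 33 were found among the 27574 genes with values. The cells were LNCaP, a human prostate cancer line derived from a lymph node metastasis, which responds to androgen. For 48 h the cultures grew in serum stripped with charcoal, a step that depletes steroids and lipids, and treatment then lasted 6 h. The groups were enzalutamide with dihydrotestosterone (DHT), VPC-13789 with DHT, enzalutamide without DHT, VPC-13789 without DHT, DHT with the compounds' solvent DMSO, and the vehicles DMSO and ethanol alone, with 3 biological replicates each and 18 samples in all. DHT, the most potent natural androgen, was given at 10 nM. Enzalutamide, a clinical antiandrogen, was given at 1.5 µM, and VPC-13789, known here only by its code, at 3 µM. The labels state these doses for the arms with DHT, and the concentrations of the 2 compounds differ, so differences between the compounds are differences between these treatments. All groups are cultures of a single cell line, so a p-value reflects only how far cultures of LNCaP differ from each other.

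Fatty acid synthesis starts in the cytosol, where citrate exported from mitochondria is cleaved to acetyl-CoA. Acetyl-CoA carboxylase turns acetyl-CoA into malonyl-CoA, and fatty acid synthase condenses malonyl-CoA units into palmitate. In the endoplasmic reticulum a 4-step cycle of condensation, reduction, dehydration and reduction lengthens the chain, and desaturases insert double bonds. Transcription of many of these genes is driven by the sterol regulatory element-binding proteins (SREBPs), and prostate tumours are known for high fatty acid synthesis that androgen can stimulate.

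The values are log2 fold changes, each with its standard error (SE) and p-value, from the authors' deposited tables, together with the average normalized count of each gene over all samples. No value per sample was analysed, so the spread enters only through the SE, and the depth per library is unknown. The level of a gene in each group was recovered from its average and its 5 fold changes, and the SE of a level from the dispersion that the SE of the fold change implies. A gene was called higher or lower at an adjusted p under 0.05 (Wald test with Benjamini-Hochberg adjustment). The androgen treatment was visible in reference genes: the authors' deposited table gives log2 changes with DHT of 1.39 for KLK3, 3.23 for TMPRSS2 and 2.80 for FKBP5. The 6 luminal prostate markers examined averaged between 4054 and 27958 normalized counts. The basal keratin gene KRT14 averaged 7.60, the blood markers PTPRC and CD68 averaged 0.532 and 0.380, and the stromal genes COL1A1 and ACTA2 averaged 316 and 73.3. KRT5, TP63, COL1A2 and PECAM1 were looked for too and had no values.

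The pathway was abundantly transcribed. Together the 33 genes made up 0.548% of all normalized counts, 26 of them averaged at least 100 normalized counts and 16 at least 1000. FASN, which encodes fatty acid synthase, averaged 29738 normalized counts and ranked 62 among all genes. SCD, the stearoyl-CoA desaturase that makes oleate and palmitoleate, averaged 16168 and ranked 145. Per kilobase of transcript, the highest averages were 3472 normalized counts for FASN, 3443 for FADS2, 3374 for TECR and 3015 for SCD, against a median of 196 per kilobase over all genes averaging at least 100. FADS2 is the desaturase that starts the synthesis of long polyunsaturated chains, and TECR is the reductase that ends each round of elongation. The genes between these and the median included ACACA, the cytosolic acetyl-CoA carboxylase, at 849 per kilobase and FADS1, the desaturase that follows FADS2, at 447. ELOVL7 stood below the median at 65.4 per kilobase. ACACB, the carboxylase associated with mitochondria, stood at 24.7 per kilobase. The long-chain acyl-CoA synthetases differed widely, from ACSL1 at 1061 per kilobase to ACSL6 at 1.69. The 6 genes averaging under 20 normalized counts were ELOVL2, ELOVL4, HACD1, THRSP, ACSL5 and ACSL6.

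**Figure D1:**
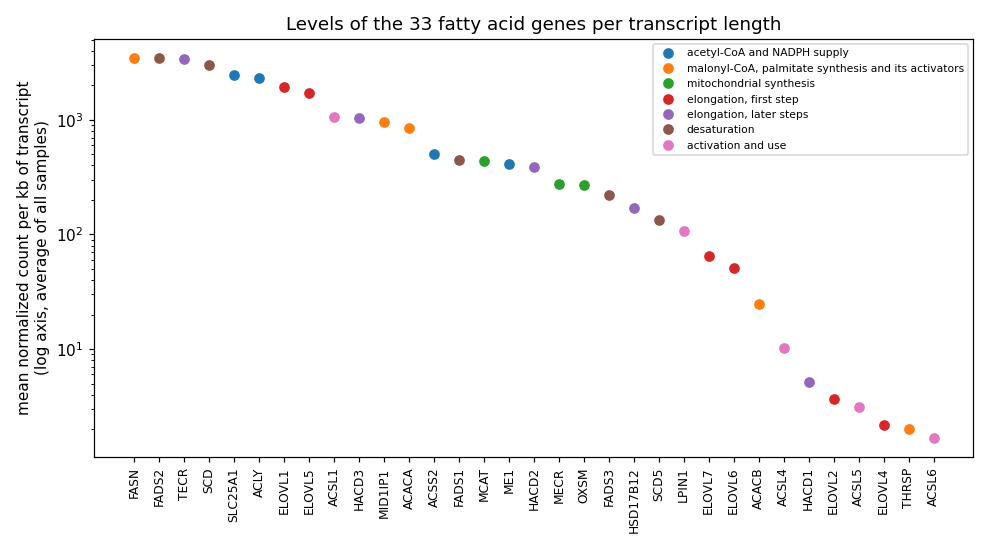
Average normalized count per kilobase of transcript (log axis, mean over all 18 samples) for the 33 fatty acid genes in falling order, coloured by role. FASN leads at 3472, followed by FADS2, TECR and SCD, and ACSL6 is lowest at 1.69.

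DHT against vehicle addresses the androgen response of these genes at 6 h. Of the 33 genes 2 rose, ACACA and ELOVL7, and 0 fell, by the adjusted p of the authors' deposited table. Over all genes tested, 1.47% rose and 0.392% fell. With so few called genes, the 2 of 33 (6.06%) is a description of the set and was not tested against other sets. The median log2 change of the 33 genes was 0.06, beside 0.01 for all genes averaging at least 100, with 21 values above 0 and 12 below. At an unadjusted p under 0.05 by the same Wald test, 3 were higher (ACACA, ELOVL2 and ELOVL7) and 1 was lower (ACSL1), 12.1% of the members beside 4.43% of all genes.

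ACACA encodes acetyl-CoA carboxylase 1, which supplies malonyl-CoA and is the committed step of the pathway. It lies on chromosome 17 (GRCh38, 37084988 to 37406818, minus strand, ENSG00000278540.4). Its recovered level was 10247 normalized counts (SE 467) with DHT, against 7715 (SE 353) with vehicle. The level was 9075 with enzalutamide and DHT and 8862 with VPC-13789 and DHT, and it was 7726 with enzalutamide and 7134 with VPC-13789 in the absence of DHT. All 3 groups given DHT were thus higher than all 3 groups without it. In the authors' deposited table ACACA rose 1.33-fold with DHT (log2 0.41, SE 0.09, 95% interval 0.23 to 0.59, adjusted p = 0.00106). ACACA has several promoters, known for tissue-specific use, and the counts are summed over all of them. The bases before 3 of its RefSeq starts are shown because they differ in base composition and in the motifs described below. Capitals mark the GC box GGGCGG and the CCAAT box, each on either strand, and only bases outside annotated exons are printed (GRCh38.p14, 5′ to 3′ on the strand of the gene).
ACACA, chr17:37406950-37407086: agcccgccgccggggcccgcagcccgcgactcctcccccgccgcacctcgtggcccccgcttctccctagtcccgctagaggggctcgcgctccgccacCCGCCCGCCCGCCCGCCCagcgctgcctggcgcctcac
ACACA, chr17:37359122-37359346: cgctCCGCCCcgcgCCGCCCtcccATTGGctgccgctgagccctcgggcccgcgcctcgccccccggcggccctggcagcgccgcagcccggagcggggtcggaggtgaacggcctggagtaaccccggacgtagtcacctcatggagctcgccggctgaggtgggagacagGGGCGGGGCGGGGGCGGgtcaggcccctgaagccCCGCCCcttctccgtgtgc
ACACA, chr17:37299768-37300017: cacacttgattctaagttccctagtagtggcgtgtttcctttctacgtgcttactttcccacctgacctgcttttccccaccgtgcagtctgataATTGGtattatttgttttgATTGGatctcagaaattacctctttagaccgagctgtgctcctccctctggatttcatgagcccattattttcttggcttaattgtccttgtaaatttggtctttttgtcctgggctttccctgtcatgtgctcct
These stretches begin 114, 26 and 1 bases before their starts and reach to 250 bases before. The stretches at the outer and middle starts held 4 and 6 GC boxes at a GC content of 81.8% and 77.8%. The stretch at the innermost start held 0 GC boxes and 2 CCAAT boxes at 43.6% GC.

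ELOVL7 encodes an elongase that lengthens saturated chains, and it lies on chromosome 5 (GRCh38, 60751791 to 60844389, minus strand, ENSG00000164181.13). Its recovered level was 579 normalized counts (SE 131) with DHT, against 189 (SE 43.2) with vehicle. The level was 332 with enzalutamide and DHT and 234 with VPC-13789 and DHT. Without DHT it was 140 with enzalutamide and 159 with VPC-13789, so the DHT group was the highest of the 6. In the authors' deposited table ELOVL7 rose 3.07-fold with DHT (log2 1.62, SE 0.46, 95% interval 0.71 to 2.52, adjusted p = 0.0284). ELOVL7 had the lowest GC content of the 26 genes averaging at least 100, at 36.4% of its longest transcript. All genes of like GC content had a median near -0.30 in this comparison, and relative to that median the change of ELOVL7 was 1.92 (adjusted p = 0.00377, Wald test with Benjamini-Hochberg adjustment, by which 1.05% of all genes rose and 0.329% fell). The transcript is AT-rich, while the 250 bases before its RefSeq start are 80.8% GC and hold 4 GC boxes. The part outside annotated exons, 121 to 250 bases before the start, is shown, with 3 of those boxes in capitals.
ELOVL7, chr5:60844390-60844519: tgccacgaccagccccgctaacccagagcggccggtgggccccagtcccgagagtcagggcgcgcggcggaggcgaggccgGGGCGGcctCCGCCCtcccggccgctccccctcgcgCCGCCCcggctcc

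The other members were not called with DHT, and the width of their intervals differed. FASN was at 31376 normalized counts with DHT, against 25813 with vehicle, and the authors' deposited table gives it a log2 change of 0.28 (SE 0.43, adjusted p = 0.999). Its 95% interval, -0.56 to 1.12, spans both a decrease and a doubling, so a change of that order was not detectable at this precision. SCD was far better bounded, at 17188 with DHT and 16555 with vehicle, and the authors' deposited table gives a log2 change of 0.05, with an interval of -0.27 to 0.38. Of the 26 genes averaging at least 100, 22 had an interval that lay wholly within a 2-fold change either way, and 7 had one within 1.5-fold. Those 7 were ACACB, ACLY, ACSL1, FADS1, MID1IP1, OXSM and SCD. The SE rose with the distance of a gene's GC content from 50%, with a Spearman rank correlation across genes of 0.65 over the 26 genes and 0.55 over 10777 genes averaging at least 100. The genes share their libraries, so this is a description.

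By role, the 4 genes supplying acetyl-CoA and NADPH lay between -0.17 and 0.11 with DHT in the authors' deposited table and none was called. They are ACLY, which cleaves citrate, SLC25A1, which exports citrate from mitochondria, ACSS2, which activates acetate, and ME1, the malic enzyme that yields NADPH. In the authors' deposited table ACLY was at 0.01 (SE 0.19) and ACSS2 at 0.06 (SE 0.32). ACACB was at -0.01 (SE 0.11, 95% interval -0.22 to 0.21), beside the 0.41 of its paralog ACACA in the authors' deposited table. For MID1IP1, which promotes assembly of acetyl-CoA carboxylase into filaments, the authors' deposited table has -0.15 (SE 0.11). Its relative THRSP averaged 2.35 normalized counts, too few to judge, with -0.43 (SE 1.02) in the authors' deposited table. The mitochondrial synthesis genes MCAT, OXSM and MECR, which build the octanoate used for lipoic acid, lay between 0.06 and 0.11 in the authors' deposited table.

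Among the 6 elongases, whose values in the authors' deposited table ranged from -0.67 for ELOVL4 to 1.62, ELOVL7 alone passed the threshold. ELOVL4, which makes very long chains, averaged 6.62 normalized counts and its -0.67 had an SE of 0.72. For ELOVL1, which makes saturated very long chains, the authors' deposited table has 0.18 (SE 0.31). For ELOVL5, which extends polyunsaturated chains, the authors' deposited table has a log2 change of 0.39 (SE 0.26, adjusted p = 0.999). The value of ELOVL6, which extends palmitate to stearate, was -0.43 (SE 0.41) by the same deposited table of the authors. ELOVL2, which acts on longer polyunsaturated chains, averaged only 14.6 normalized counts, and the authors' deposited table gives it 1.16 (SE 0.47, adjusted p = 0.437). HSD17B12, the dehydratases HACD2 and HACD3, and TECR carry out the later steps of the cycle, and their log2 changes in the authors' deposited table lay between -0.15 and 0.19, apart from the low-count dehydratase HACD1 at 0.30 (SE 0.39). All 5 desaturases had small positive values in the authors' deposited table, between 0.05 for SCD and 0.19 for SCD5, and none was called.

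Of the genes that activate or use fatty acids, ACSL1 came nearest to a decrease. ACSL1 activates long chains to acyl-CoA, and its recovered level was 3999 normalized counts with DHT, against 4950 with vehicle. Its log2 change in the authors' deposited table was -0.31 (SE 0.10, p = 0.00251), which did not pass after adjustment (adjusted p = 0.11). Of the other synthetases, ACSL4, which prefers arachidonate, averaged 54.6 normalized counts and is at -0.48 (SE 0.68) in the authors' deposited table. For ACSL5 and ACSL6 the authors' deposited table has 0.32 (SE 0.43) and 0.01 (SE 0.53). LPIN1 encodes a phosphatidate phosphatase of triglyceride synthesis, and the authors' deposited table gives it -0.21 (SE 0.36).

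**Figure D2:**
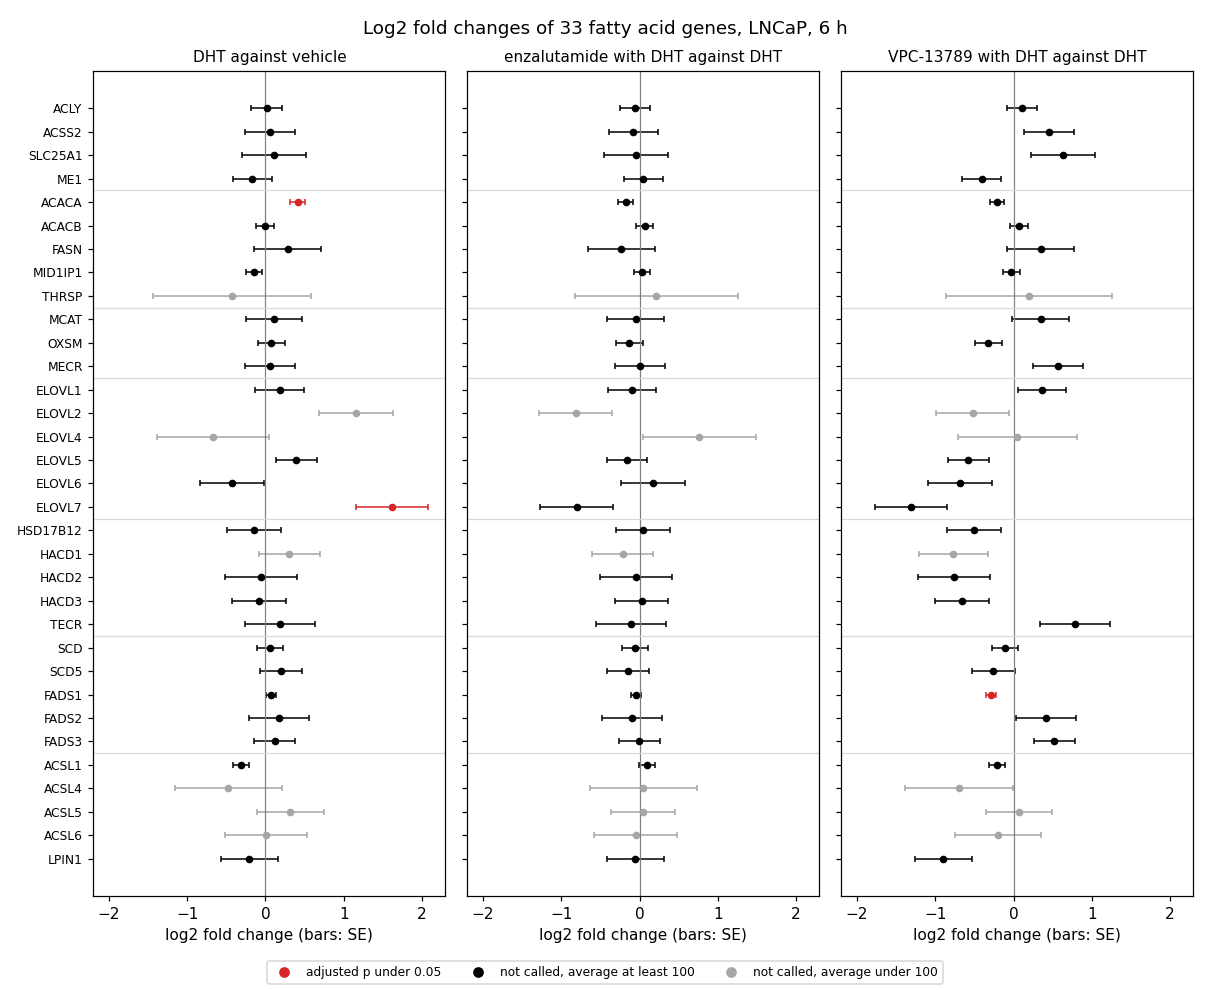
Log2 fold change of each of the 33 genes (points, with bars of 1 SE) for DHT against vehicle and for each compound with DHT against DHT, ordered by role, with genes averaging under 100 in grey. Red points passed an adjusted p under 0.05: ACACA and ELOVL7 with DHT, and FADS1 with VPC-13789 and DHT.

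Enzalutamide with DHT against DHT asks whether the antagonist reversed these changes. By the deposited DESeq2 test 0 of the 33 genes were called in either direction, and 0 had an unadjusted p under 0.05. Over all genes tested, 0.0249% were higher and 0.403% lower. The authors' deposited table gives ACACA a log2 change of -0.18 (SE 0.09, 95% interval -0.36 to 0.01, adjusted p = 1) and ELOVL7 one of -0.80 (SE 0.46, 95% interval -1.71 to 0.10, adjusted p = 1). These values are opposite in sign to the DHT change, but both comparisons use the same DHT samples, so the opposite signs are not independent evidence. The 33 values in the authors' deposited table ran from -0.82 for ELOVL2 to 0.76 for ELOVL4, both of low count. The median of the 33 genes was -0.05, beside -0.02 for all genes averaging at least 100. The DHT response measured within enzalutamide, that is enzalutamide with DHT against enzalutamide without it, shares no sample with DHT against vehicle, though it uses the same enzalutamide-with-DHT samples as the comparison just given. There the log2 value of ACACA was 0.23 (SE 0.09, adjusted p = 0.951) and that of ELOVL7 was 1.25 (SE 0.46, adjusted p = 0.673), and none of the 33 genes was called, beside 0.428% of all genes higher and 0.0544% lower (Wald test with Benjamini-Hochberg adjustment). At an unadjusted p under 0.05 by that test 2 members were higher and 1 lower, 9.09% of the members beside 2.68% of all genes. The test of whether the enzalutamide effect differed with and without DHT called 0 of the 33 genes, and 0 had an unadjusted p under 0.05, with 0.00725% of all genes higher and 0.0689% lower. The enzalutamide effect on ACACA differed by -0.18 between the arms, with a 95% interval of -0.44 to 0.08.

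VPC-13789 with DHT against DHT called a single member, FADS1, which was lower. Over all genes tested, 0.249% were lower and 0.0262% higher. The low-count genes ELOVL4, THRSP and ACSL5 had no adjusted p in this comparison. At an unadjusted p under 0.05 the deposited test has 6 members lower, namely FADS1, ACACA, ELOVL5, ELOVL7, ACSL1 and LPIN1, and 1 higher, FADS3. These 7 are 21.2% of the members, beside 5.48% of all genes and 8.55% of genes averaging at least 100. The 33 values in the authors' deposited table for VPC-13789 with DHT ran from -1.31 for ELOVL7 to 0.79 for TECR. The SE of FADS1 was the smallest of the members in the authors' deposited table for DHT, at 0.06.

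FADS1 encodes the delta-5 desaturase, which makes arachidonic and eicosapentaenoic acid from their precursors. It lies on chromosome 11 (GRCh38, 61799625 to 61829318, minus strand, ENSG00000149485.18), inside the annotated span of FADS2 on the opposite strand. The 2 genes share 490 bases of exon, or 4.79% of the exon sequence of FADS1, and the strand setting of the counting is not given in the sources used here. The recovered level of FADS1 was 1820 normalized counts (SE 57.0) with VPC-13789 and DHT, against 2221 (SE 68.4) with DHT. It was 1774 (SE 55.7) with VPC-13789 alone, against 2119 (SE 65.5) with vehicle. With enzalutamide it was 2149 with DHT and 2066 without, so both VPC-13789 groups lay below the other 4. In the authors' deposited table FADS1 was 1.22-fold lower with VPC-13789 and DHT than with DHT (log2 -0.29, SE 0.06, 95% interval -0.41 to -0.16, adjusted p = 0.00542). Without DHT the authors' deposited table gives a log2 change of -0.26 (SE 0.06, p = 5.36e-05), which did not pass over all genes (adjusted p = 0.679). FADS1 itself did not respond detectably to DHT, at 0.07 (SE 0.06, 95% interval -0.06 to 0.19) in the authors' deposited table. The difference of the VPC-13789 effect between the arms with and without DHT was -0.03 (95% interval -0.21 to 0.15). Averaged over both arms, a comparison added after the data were seen, FADS1 was lower by VPC-13789 by a log2 change of -0.27 (SE 0.05, 95% interval -0.36 to -0.18, adjusted p = 1.41e-05, Wald test with Benjamini-Hochberg adjustment). It was the only member called in that comparison, beside 0.0399% of all genes lower and 0.00363% higher. The same average for enzalutamide was -0.04 (95% interval -0.13 to 0.05), and 0 of 33 members were called, with 0 at an unadjusted p under 0.05 and 0.0109% of all genes higher and 0.105% lower. The bases before the RefSeq start of FADS1 outside any annotated exon lie 195 to 250 bases from it and held 2 GC boxes.
FADS1, chr11:61817198-61817253: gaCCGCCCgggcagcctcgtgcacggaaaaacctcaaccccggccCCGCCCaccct

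FADS2, which shares the locus, had a log2 change of 0.42 (SE 0.38, 95% interval -0.33 to 1.17) with VPC-13789 and DHT in the authors' deposited table. Its level was 16740 normalized counts with VPC-13789 and DHT, against 12517 with DHT. FADS3, the third gene of the cluster, is listed in the authors' deposited table at 0.52 (SE 0.26, adjusted p = 0.406). For SCD the authors' deposited table has -0.11 (95% interval -0.44 to 0.22). FASN was at 39980 with VPC-13789 and DHT, against 31376 with DHT, and the authors' deposited table gives a log2 change of 0.35, with an interval of -0.49 to 1.19. LPIN1 was at 357 with VPC-13789 and DHT, against 665 with DHT, and at 519 with VPC-13789 alone, against 768 with vehicle. Its log2 change in the authors' deposited table was -0.90 (SE 0.36, adjusted p = 0.406) with DHT, and -0.57 (SE 0.36) without. Neither ELOVL7 nor ACACA was called: the authors' deposited table gives them -1.31 (SE 0.46, adjusted p = 0.397) and -0.21 (SE 0.09, adjusted p = 0.406). Within VPC-13789, ACACA was higher with DHT than without it by 0.31 (SE 0.09, adjusted p = 0.0824) and ELOVL7 by 0.55 (SE 0.46, adjusted p = 0.590), and 0 of 33 members were called by the Wald test with Benjamini-Hochberg adjustment, beside 0.609% of all genes higher and 0.221% lower. At an unadjusted p under 0.05 by that test 2 members were higher and 1 lower, 9.09% of the members, near the 7.36% of all genes. With the trend with GC content described below subtracted, 3 members were called, ACACA and ELOVL2 higher and MID1IP1 lower, beside 2.07% of all genes higher and 1.31% lower. The 0.55 of ELOVL7 is given without that subtraction. Genes averaging at least 100 in its GC bin, the lowest, had a median of -0.81 in this comparison.

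**Figure D3:**
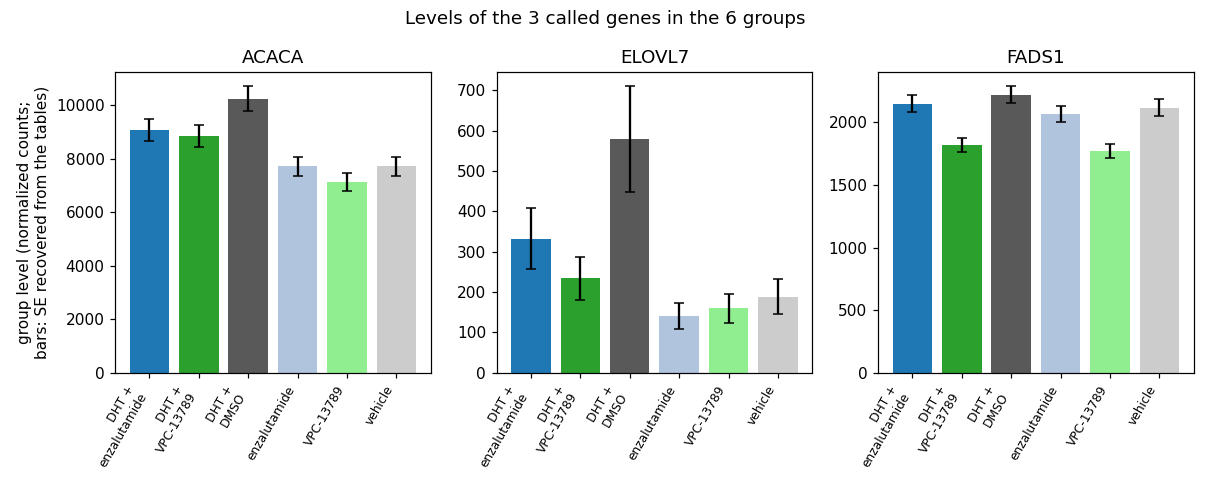
Recovered levels (normalized counts, with bars of 1 SE) of ACACA, ELOVL7 and FADS1 in the 6 groups, each group being 3 samples. ACACA is highest in the 3 DHT groups, ELOVL7 in the DHT group, and FADS1 is lowest in both VPC-13789 groups.

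The fold changes of the members with VPC-13789 and DHT followed the GC content of their transcripts. The Spearman rank correlation across genes between GC content and log2 change was 0.87 over the 26 members averaging at least 100 and 0.83 over 10777 genes, which all share the same libraries. All 9 members with a GC content under 46% had values below 0, with a median of -0.58. Of the 17 members at 46% or more, 11 had values above 0, with a median of 0.35. Over all genes averaging at least 100, the median log2 change was -0.70 in the lowest of 20 GC bins and 0.52 in the highest. The part of this trend in the members' values was not tested beyond subtracting it. With the median of genes of like GC content subtracted, the correlation over the members was 0.22 and the median of the 33 members was -0.01, against -0.20 before. ELOVL7 was then at -0.61, LPIN1 at -0.75, ELOVL5 at -0.08, FADS3 at 0.04 and FASN at -0.17. FADS1, whose GC content was 50.1%, was at -0.27 and remained the only member called (adjusted p = 0.0023, Wald test with Benjamini-Hochberg adjustment), beside 0.815% of all genes lower and 1.14% higher. The same correlation was 0.92 over the members with enzalutamide alone, 0.74 with VPC-13789 alone, 0.34 with DHT and -0.16 with enzalutamide and DHT. Over the 10777 genes it was 0.79, 0.75, 0.50 and -0.32 in the same order. A rank correlation does not give the size of a trend. With enzalutamide alone the all-gene medians ran only from -0.24 in the lowest GC bin to 0.14 in the highest.

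**Figure D4:**
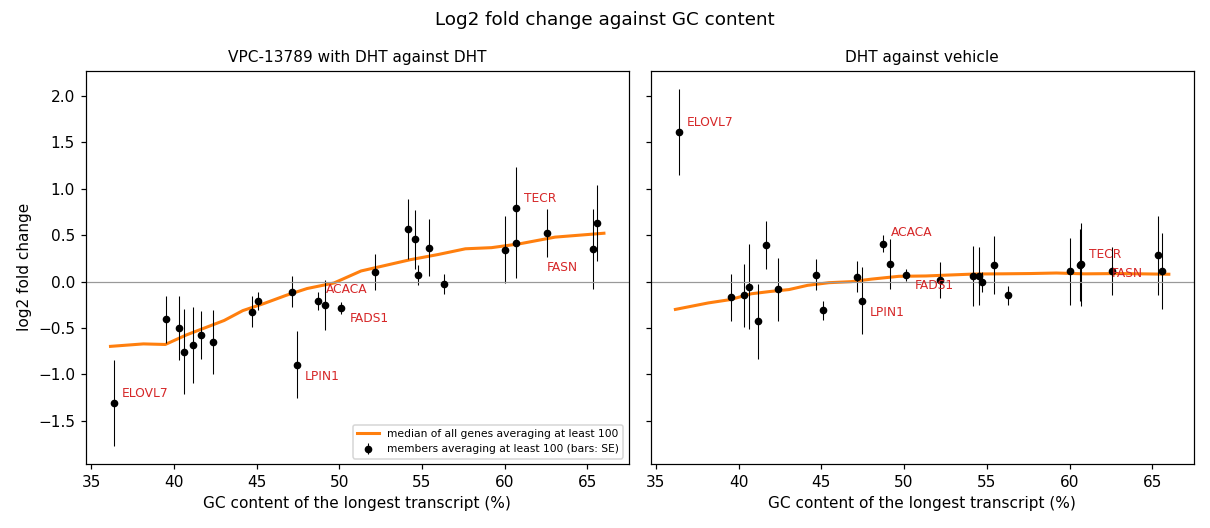
Log2 fold change (vertical axis, bars of 1 SE) against GC content of the longest transcript in percent for the 26 members averaging at least 100, with the running median of all such genes as a line. With VPC-13789 and DHT the members lie along the line, with LPIN1 and ELOVL7 furthest below it, MID1IP1 and then FADS1 next, and FADS1 with the shortest bar; with DHT alone ACACA and ELOVL7 lie above it.

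By role, the median log2 changes with VPC-13789 and DHT of members averaging at least 100 were -0.63 for the 4 elongases and -0.58 for the 4 genes of the later elongation steps. With GC content subtracted they were -0.10 and -0.04. The 4 genes of acetyl-CoA and NADPH supply had a median of 0.28, and 0.17 with GC content subtracted. TECR, at 60.7% GC, was at 6360 normalized counts with VPC-13789 and DHT, against 3680 with DHT, while HACD3, at 42.3% GC, was at 2286 against 3597. These 2 genes act in the same elongation cycle and had values of opposite sign, neither of which was called.

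Without DHT neither compound had a called member. Enzalutamide against vehicle had 0 members called and 0 at an unadjusted p under 0.05 by the deposited DESeq2 test, beside 0% of all genes higher and 0.00363% lower. VPC-13789 against vehicle had 0 members called, beside 0% of all genes in either direction, and 1 member, FADS1, at an unadjusted p under 0.05. The medians of the 33 members were 0.01 with enzalutamide and -0.10 with VPC-13789. For ACACA the authors' deposited table gives 0.00 (95% interval -0.18 to 0.19) with enzalutamide and -0.11 (95% interval -0.30 to 0.07) with VPC-13789.

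Set directly against enzalutamide, with DHT in both groups, VPC-13789 had 0 of 33 members called by the Wald test with Benjamini-Hochberg adjustment, beside 0.00725% of all genes higher and 0.00363% lower. At an unadjusted p under 0.05 by that test 2 were higher and 5 lower, 21.2% of the members beside 5.49% of all genes and 7.21% of genes averaging at least 100. FADS1 was lower with VPC-13789 than with enzalutamide by a log2 difference of -0.24 (SE 0.06, 95% interval -0.36 to -0.12, adjusted p = 0.244). With GC content subtracted the difference was -0.27 and passed (adjusted p = 0.00213), as did that of MID1IP1, beside 0.881% of all genes lower and 1.43% higher. Without DHT the difference was -0.22 (95% interval -0.34 to -0.10, adjusted p = 1), and 0 of 33 members were called, beside 0% of all genes in either direction, with 1 member at an unadjusted p under 0.05. For ACACA the compounds with DHT differed by -0.03 (95% interval -0.22 to 0.15), and for SCD -0.05 (95% interval -0.38 to 0.28). For FASN it was 0.58 (95% interval -0.26 to 1.42) and for ELOVL7 -0.51 (95% interval -1.41 to 0.40), which leaves room for a difference of 2-fold or more. These values are given without GC content subtracted. In this comparison the median over all genes averaging at least 100 was 0.57 in the highest GC bin, which holds FASN. It was -0.77 in the lowest, which holds ELOVL7. The test of whether the VPC-13789 effect differed with and without DHT called 0 members, with 0 at an unadjusted p under 0.05, beside 0% of all genes in either direction.

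The surrounding lipid pathways were read from 7 lists, of which 116 of 122 genes had values. With DHT 5 of the 116 rose and 1 fell, beside the 1.47% and 0.392% over all genes. The riser with the lowest adjusted p was DEGS1, the sphingolipid desaturase that makes ceramide, which the authors' deposited table lists at 0.79 (SE 0.07, adjusted p = 1.06e-29). CAMKK2, a kinase that activates AMP-activated protein kinase, rose in the authors' deposited table by 1.44 (SE 0.15, adjusted p = 4.33e-20). MBOAT2, a lysophospholipid acyltransferase, rose in the authors' deposited table by 1.47 (SE 0.35, adjusted p = 0.00189). VLDLR, a receptor for triglyceride-rich lipoproteins, rose in the authors' deposited table by 0.88 (SE 0.17, adjusted p = 3.03e-05). SLC25A20, which carries acylcarnitines into mitochondria for oxidation, rose in the authors' deposited table by 0.41 (SE 0.12, adjusted p = 0.0303). LPCAT4, another lysophospholipid acyltransferase, fell in the authors' deposited table by 0.50 on the log2 scale (SE 0.14, adjusted p = 0.0187). None of the 12 lipid droplet genes or the 15 SREBP control and sterol feedback genes was called with DHT.

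Enzalutamide with DHT lowered 1 of the 116 genes, CAMKK2, by 0.64 on the log2 scale relative to DHT (SE 0.15, adjusted p = 0.00373, log2 -0.64 in the authors' deposited table), and raised 0, beside 0.403% of all genes lower and 0.0249% higher. VPC-13789 with DHT lowered 3, INSIG1, VLDLR and DEGS1, and raised 0, beside 0.249% of all genes lower and 0.0262% higher. At an unadjusted p under 0.05 the deposited test has 22 of the 116 genes for VPC-13789 with DHT, where 5.48% of all genes and 8.55% of genes averaging at least 100 had one. It has 4 for enzalutamide with DHT, where 2.13% and 2.38% had one. These counts were made without GC content subtracted. INSIG1 encodes the membrane protein that holds SREBPs in the endoplasmic reticulum when sterols are plentiful and is itself an SREBP target. Its log2 change in the authors' deposited table was -1.07 (SE 0.21, adjusted p = 0.000998) with DHT, and -0.85 (SE 0.21, adjusted p = 0.679) without. Averaged over both arms INSIG1 was lower by VPC-13789 by -0.96 (SE 0.15, adjusted p = 7.14e-06, Wald test with Benjamini-Hochberg adjustment). DEGS1 was also called lower there, at -0.22 (adjusted p = 0.00891), beside 0.0399% of all genes lower. By the same test the enzalutamide average called DEGS1 lower too, at -0.19 (adjusted p = 0.0364), beside 0.105% of all genes. With GC content subtracted DEGS1 was called in neither average, at -0.03 with VPC-13789 and -0.15 with enzalutamide. With DHT alone INSIG1 was at -0.03 in the authors' deposited table. INSIG1 and FADS1 were thus both lower with VPC-13789 and did not respond detectably to DHT. With VPC-13789 and DHT the authors' deposited table has VLDLR at -0.67 (SE 0.17, adjusted p = 0.0345) and DEGS1 at -0.29 (SE 0.07, adjusted p = 0.00918). With GC content subtracted INSIG1 was at -0.83 and remained called (adjusted p = 0.00873, Wald test with Benjamini-Hochberg adjustment). VLDLR was then at -0.25 and DEGS1 at 0.02 (SE 0.07), so both lost their call (adjusted p = 1 for each by that test). The value of DEGS1 was smaller than its SE, so no direction was shown. Without DHT 0 of the 116 genes were called for either compound by the deposited DESeq2 test, with 1 at an unadjusted p under 0.05 for enzalutamide and 6 for VPC-13789, where 0.675% and 0.769% of all genes had one.

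The promoter windows of 30 of the 33 genes were matched in RefSeq (GRCh38.p14), giving 53 windows of 250 bases before a start. FASN, HSD17B12 and OXSM had no window, so no motif was searched for them. Motifs were searched on both strands by their letters. The half-site of the androgen response element, AGAACA, occurred in 3 of the 53 windows (5.66%), beside 12.4% of all 35116 windows. These 3 windows belonged to 3 genes, ACSL1, ACSL5 and ACSL6, whose other windows lacked it. The half-site was absent from the windows of ACACA, ELOVL7 and FADS1. The full element, the half-site and its inverted copy around a spacer, occurred in 0 of the 53 windows, beside 0.0114% of all windows. The sterol regulatory element occurred in 1 window, that of MID1IP1, 1.89% of the 53, beside 0.125% of all windows. CCAAT occurred in 35.8% beside 32.0%, and GGGCGG in 71.7% beside 42.6%. These are matches of letters in short windows and say nothing of binding.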

How the data were processed

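Polyadenylated RNA of 18 LNCaP samples (6 groups of 3) was sequenced on the BGISEQ-500, per the labels. The submitters' processing notes name FastQC, STAR 2.6.1c, featureCounts, DESeq2 and the build GRCh38.p12, while annotation release and strandedness were not given in the sources used here. The 5 tables hold the authors' own comparisons, without a value for any single sample. Per the file headers, baseMean is the average normalized count, a signal on a linear scale. The deposited fold change and SE are on the log2 scale, the deposited Wald statistic is a score, and each p-value and its adjusted value were used as deposited. In all 27574 rows the statistic equalled log2 change over SE and the p-value was that of a normal test. Independent filtering left 6418, 7488 and 12302 genes without an adjusted p in the comparisons that include DHT and 0 in those without.

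From 27599 rows, 25 with a date in place of a symbol were dropped. Group levels were solved from the averages and fold changes with 3 samples a group, and dispersions from the SE of the DHT table. The 6 further comparisons, and 2 added after seeing the data, combined log2 changes in Wald tests with Benjamini-Hochberg adjustment over 27574 genes, with SE from the mean of the squared SE of the tables combined, or their sum for interactions. Intervals are 1.96 SE on each side. GC content and coordinates came from GENCODE 29, which may not be the authors' release, for 27354 genes (99.2%). The GC-subtracted values use the medians of 20 GC bins of genes averaging at least 100. Exons of other genes overlapped 21.6% of the exon bases of HSD17B12 and 21.6% of OXSM. Other alternatives were scaling by the median, minimum averages of 10 and 100, and a threshold of 0.1. No independent filtering was tried for the deposited comparisons only, and other SE for the combined ones only. The steps were tested on simulated data. The simulation of the Wald tests held no trend with GC content, unlike the compound comparisons, so it does not cover that trend. Members called in a deposited comparison have full values, others values with DHT or ranges and medians of the set and its roles, and up to 4 called genes per related list are named; 1 reference gene of that rule is not reported here. Other members named were chosen for their roles, with values known. The members, lists and tests were chosen with earlier results of these data known. Python 3.11.15, pandas 2.3.3, numpy 2.4.6, scipy 1.17.1 and matplotlib 3.10.9 were used.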

Additional observations from a re-analysis of the deposited data

How the results depend on the processing

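The members called in the 5 deposited comparisons stayed called, in the same direction, under all alternatives tried on them. These were GC content, median scaling, minimum averages, no independent filtering and a threshold of 0.1. The threshold of 0.1 only loosens the cut-off, so it could not remove a call. ACACA with DHT ranged from 0.38 to 0.41 on the log2 scale (adjusted p 0.000763 to 0.00427, Wald test), ELOVL7 from 1.60 to 1.92 (0.00377 to 0.0418), and FADS1 with VPC-13789 and DHT from -0.29 to -0.27 (0.0023 to 0.0326). FADS1 averaged over both arms ranged from -0.27 to -0.26 (2.33e-06 to 5.85e-05, Wald test). There SE from the recovered dispersion was tried in place of no independent filtering.

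Counts of called members moved in 2 comparisons. For VPC-13789 minus enzalutamide with DHT, 0 became 2 with GC content subtracted (FADS1, and MID1IP1 at -0.40, adjusted p = 0.0099). For DHT within VPC-13789, 0 became 3 with GC content subtracted: ACACA, ELOVL2 at 1.68 (adjusted p = 0.0195) and MID1IP1 at -0.47 (adjusted p = 0.000536). There it became 1 (ACSL1) with median scaling and also 1 with a minimum average of 10, 2 (ACACA, ACSL1) with a minimum of 100, and also 2 at a threshold of 0.1. With GC content subtracted, 535 genes of all were called for VPC-13789 with DHT, against 42 before, 632 against 3 for VPC-13789 minus enzalutamide with DHT, and 924 against 229 for DHT within VPC-13789. Of 429 single values, 344 were unchanged in call and moved by less than 1 SE, 80 moved further and 5 became called. The cause was not tested. No paired analysis was possible because the tables hold no values per sample, and for the same reason no replicate could be left out. Low counts limit the 6 members averaging under 20.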
